A study of Mus musculus with 4 samples.

Results

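The 9 genes described here are the receptors for progesterone, estrogen and glucocorticoid (Pgr, Esr1, Esr2, Nr3c1), 2 genes that these receptors induce (Fkbp5, Greb1) and 3 enzymes that alter steroid hormones within a tissue (Akr1c18, Hsd11b1, Srd5a1). They were taken by name from the 55421 genes of the count files. Uteri of 4 pregnant mice were sequenced at E18.5, with 1 poly(A)-selected, strand-specific library per mouse. By the study's methods, RNA came from some milligrams of frozen uterine tissue, and the site of the piece is not given. The WT group consisted of 2 C57BL/6J mice, and the Qa2- group of 2 mice that lack the Qa-2 antigen, a class I molecule of the major histocompatibility complex encoded in mice by the H2 complex. By the study's account the WT and Qa2- mice were mated syngeneically, so that the mothers and fetuses of the Qa2- group lacked Qa-2 alike. The study addressed how the absence of Qa-2 affects pregnancy, and the comparison of the uterine transcriptomes asks which genes differ between these strains shortly before birth.

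The Qa2- mice are B6.K1, an H2 congenic strain, and not a targeted deletion. The groups therefore also differ in the rest of the exchanged H2 interval, and both strains came from different breeders, so that the absence of Qa-2 cannot be told apart from these differences. The labels were checked on the Qa-2 genes themselves, with 4204 and 1192 counts of H2-Q6 in WT against 3 and 3 counts in Qa2- uteri.

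In rodents, pregnancy is held by progesterone, which acts through its nuclear receptor in the myometrium and the endometrium and keeps the uterus quiescent. Before labour this action is withdrawn. In mice the hormone itself falls, in part because ovarian 20alpha-hydroxysteroid dehydrogenase inactivates it, while within the uterus and cervix local steroid metabolism and a relative gain of estrogen action contribute to the change. The nuclear receptors are ligand-activated transcription factors that wait in the cell bound to heat shock protein chaperones, bind DNA as dimers at paired short motifs and recruit coactivators or corepressors.

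The promoters of Pgr, Esr1 and Greb1, an estrogen-induced gene used widely as a readout of the estrogen receptor, are shown. The choice followed the levels of Esr1 and Greb1, which stood apart between the groups. Those of Srd5a1 did too, and its promoter is not shown. Sequences are those of RefSeq on GRCm38.p6, 250 bases before an annotated start site and read 5′ to 3′ on the strand of the gene. Capitals mark the estrogen receptor half-site GGTCA or its complement TGACC.
Pgr, chr9:8899583-8899832, plus strand: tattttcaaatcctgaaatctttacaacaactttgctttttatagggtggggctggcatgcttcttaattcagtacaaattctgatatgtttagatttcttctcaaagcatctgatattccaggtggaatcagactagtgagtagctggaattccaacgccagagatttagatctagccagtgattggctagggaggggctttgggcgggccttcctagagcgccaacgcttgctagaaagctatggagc
Esr1, chr10:4611739-4611988, plus strand: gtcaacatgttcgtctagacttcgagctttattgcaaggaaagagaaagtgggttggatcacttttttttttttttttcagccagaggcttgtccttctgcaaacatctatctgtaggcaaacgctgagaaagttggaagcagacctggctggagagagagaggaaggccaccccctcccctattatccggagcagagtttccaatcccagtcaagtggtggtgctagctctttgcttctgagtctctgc
Greb1, upstream start, chr12:16800887-16801136, minus strand: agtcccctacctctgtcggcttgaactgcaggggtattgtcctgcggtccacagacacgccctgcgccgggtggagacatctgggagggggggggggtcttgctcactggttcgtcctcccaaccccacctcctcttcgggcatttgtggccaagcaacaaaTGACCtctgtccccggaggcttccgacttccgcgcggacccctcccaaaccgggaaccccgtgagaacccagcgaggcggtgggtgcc
Greb1, second start, chr12:16757240-16757489, minus strand: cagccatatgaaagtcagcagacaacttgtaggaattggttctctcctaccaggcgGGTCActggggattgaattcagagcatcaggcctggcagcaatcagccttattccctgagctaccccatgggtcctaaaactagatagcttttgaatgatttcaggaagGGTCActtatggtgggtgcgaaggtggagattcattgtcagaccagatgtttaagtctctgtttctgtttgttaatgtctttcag

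The Greb1 window at the upstream start held 1 half-site, 88 bases before the start, and the window at the second start held 2, at 194 and 85 bases before it. The windows of Pgr and Esr1 held none, and neither did that of Srd5a1. RefSeq entries were found for 8 of the 9 genes, with 10 windows between them, and 3 of the 10 windows had an estrogen receptor half-site, the third being that of Esr2. Such a half-site occurred in 35.2% of all 32851 promoter windows of this length, searched on both strands, so its presence was common. The 2 half-sites facing each other across a gap of 3 bases, the full palindrome, were found in 0.0639% of all windows and in none of the 10. The half-site AGAACA (complement TGTTCT), shared by the progesterone and glucocorticoid receptors, was found in 16.1% of all windows and in none of the 10. A match of letters is a description of the sequence and not a binding site, and these windows reach no further than 250 bases.

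None of the 9 genes passed the test between WT and Qa2- uteri. Esr1, Greb1 and Srd5a1 had higher values in both Qa2- libraries than in both WT libraries, with means 1.51, 1.57 and 1.53 times those of WT. This order was found in 24.5% of all genes tested. Pgr and Nr3c1 had nearly equal means, Fkbp5 overlapped between the groups, and Akr1c18 and Hsd11b1 spread so widely between the WT libraries that the groups overlapped. Esr2 had no counts in any library. Values are CPM, the counts of a gene relative to the library total, with totals scaled by TMM normalization, and differences are the log2 fold change of WT over Qa2-, so that a negative value stands for a higher level in Qa2- uteri. Tests are the quasi-likelihood F-tests of edgeR, adjusted by Benjamini-Hochberg over the 14492 genes that reached 1 CPM in 2 or more samples.

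The libraries held from 33286390 to 41041299 counts, in which the floor of 3 counts stood for 0.0747 to 0.0858 TMM-scaled CPM, so 8 of the genes were measured far above the limit of counting. The libraries of a group differed by much more than sampling noise, and p-values measure the spread between these 2 mice per group. In bulk tissue, fewer cells of a type and less RNA per cell cannot be told apart. Neither can be told apart from the site of the piece taken from each uterus. Smooth muscle genes, which mark the myometrium, were all detected, with 9 of 9 above the floor and summed levels of 27064 and 45036 CPM in WT against 23997 and 12868 CPM in Qa2- uteri. The 8 markers of uterine epithelium summed to 2208 and 1305 CPM in WT against 3065 and 2981 CPM in Qa2- uteri, and 5 of 5 endothelial markers were higher in both WT libraries, an order that 25.4% of all genes tested had. WT replicate 2 thus had the most smooth muscle and the least epithelial RNA, and Qa2- replicate 2 the least smooth muscle RNA.

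**Figure D1:**
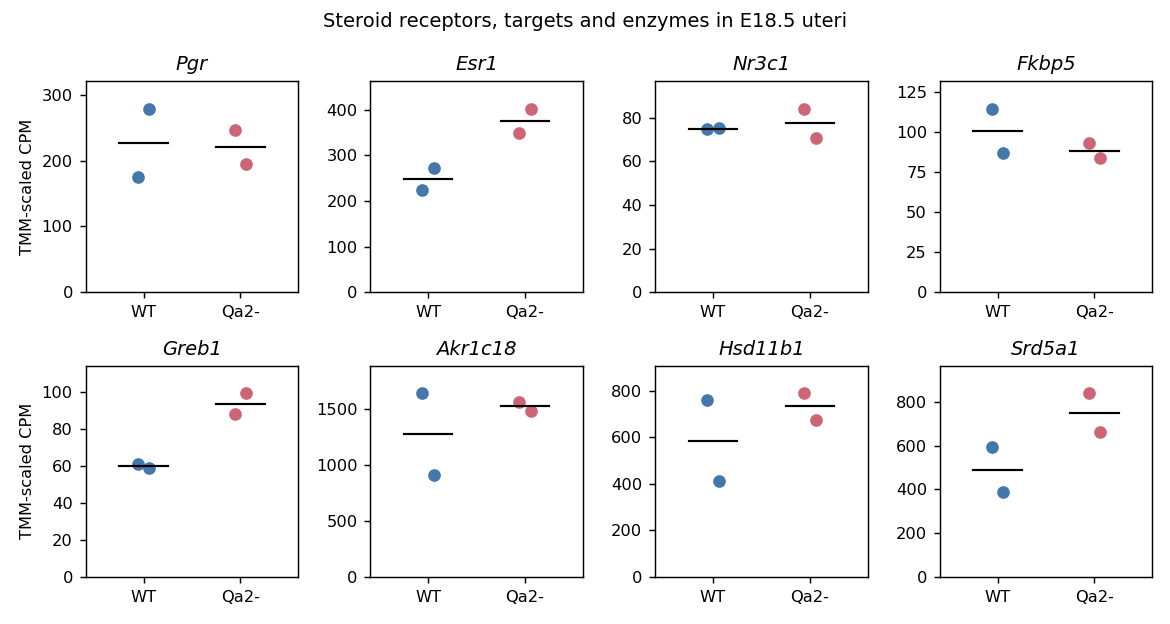
Level of 8 genes in each uterus, as TMM-scaled CPM on a linear axis from 0 (points, 1 per library, replicate 1 left and replicate 2 right; lines, group means; n = 2 per group). Both Qa2- points lie above both WT points for Esr1, Greb1 and Srd5a1, and the groups overlap for the other genes; Esr2, with 0 counts throughout, is not drawn.

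Pgr (ENSMUSG00000031870, chromosome 9 from 8899833 to 8968611, plus strand) encodes both forms of the nuclear progesterone receptor from 1 gene. It had 175 and 279 CPM in WT replicates 1 and 2 and 247 and 195 CPM in Qa2- replicates 1 and 2. The highest and the lowest value were both WT, so the groups overlapped entirely. The means were 227 ± 73.9 CPM in WT and 221 ± 36.3 CPM in Qa2- uteri (SD, n = 2 each), with a log2 fold change of 0.037 (SE 0.29, edgeR adjusted p = 0.960). The 95% interval of this difference ran from -0.71 to 0.78, which does not show that the levels were equal. Its direction turned to -0.34 without WT replicate 2. Gene counts do not separate the short from the long receptor form.

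Esr1 (ENSMUSG00000019768, chromosome 10 from 4611593 to 5005614, plus strand) encodes estrogen receptor alpha, the main estrogen receptor of the uterus. Its levels were 224 and 273 CPM in WT and 349 and 403 CPM in Qa2- uteri. Both Qa2- libraries stood above both WT libraries. The means were 249 ± 34.1 CPM and 376 ± 37.8 CPM (SD, n = 2 each). The log2 fold change was -0.60 (SE 0.22, 95% interval from -1.15 to -0.042), with an unadjusted edgeR p of 0.0395 and an adjusted p of 0.314. With DESeq2 the adjusted p was 0.124, so Esr1 missed the threshold with both tools.

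Esr2 (ENSMUSG00000021055, chromosome 12 from 76120419 to 76177259, minus strand) encodes estrogen receptor beta, which in adult females is known mainly from the granulosa cells of the ovary. It had 0 counts in each of the 4 libraries, and the floor of 3 counts bounds its level at 0.0747 to 0.0858 CPM. Gper1, the G protein-coupled estrogen receptor of the membrane, chosen after its values were seen, had 52 and 21 counts in WT and 51 and 35 counts in Qa2- uteri. Of the nuclear estrogen receptors, transcripts were detected for Esr1 alone.

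Nr3c1 (ENSMUSG00000024431, chromosome 18 from 39410545 to 39519421, minus strand) encodes the glucocorticoid receptor. It had 74.6 and 75.1 CPM in WT and 84.2 and 70.8 CPM in Qa2- uteri. The WT values lay between those of the Qa2- libraries. The log2 fold change was -0.050 (SE 0.16, edgeR adjusted p = 0.899), with a 95% interval from -0.46 to 0.36, the second narrowest of the 8 genes.

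Greb1 (ENSMUSG00000036523, chromosome 12 from 16670615 to 16800886, minus strand) encodes a cofactor of estrogen receptor alpha and is itself an estrogen-induced gene, and its 2 promoter windows are those with the half-sites shown above. It had 60.8 and 58.6 CPM in WT and 87.9 and 99.2 CPM in Qa2- uteri. The replicates lay close together and the groups apart. The means were 59.7 ± 1.57 CPM and 93.5 ± 7.99 CPM (SD, n = 2 each), and the log2 fold change of -0.65 (SE 0.15, 95% interval from -1.03 to -0.26) had the smallest p of the 9 genes. Its unadjusted edgeR p was 0.00753 and its adjusted p 0.255, while DESeq2 gave an adjusted p of 0.0564. Greb1 is also known as a progesterone-responsive gene in the decidualizing stroma, so its level does not belong to one hormone alone.

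Fkbp5 (ENSMUSG00000024222, chromosome 17 from 28399094 to 28517527, minus strand) encodes a co-chaperone that lowers the hormone affinity of the glucocorticoid and progesterone receptors and is induced by both. Its levels were 114 and 87.1 CPM in WT and 92.9 and 83.5 CPM in Qa2- uteri. WT replicate 1 was highest, and the other WT library lay between the Qa2- libraries. The log2 fold change was 0.19 (SE 0.20, 95% interval from -0.31 to 0.70, edgeR adjusted p = 0.667), and it came to -0.044 without WT replicate 1. The gene lies 6.92 Mb from H2-Q7 on the same chromosome as the exchanged H2 interval, whose ends in this strain were not examined here.

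Akr1c18 (ENSMUSG00000021214, chromosome 13 from 4132615 to 4150654, minus strand) encodes 20alpha-hydroxysteroid dehydrogenase, the enzyme that turns progesterone into an inactive product and is best known from the regressing corpus luteum. It was by far the most abundant of the 9 genes, with 1641 and 909 CPM in WT and 1564 and 1484 CPM in Qa2- uteri. WT replicate 1 was the highest and WT replicate 2 the lowest, so the groups overlapped. The means were 1275 ± 517 CPM and 1524 ± 56.7 CPM (SD, n = 2 each), and the log2 fold change was -0.26 (SE 0.38, 95% interval from -1.24 to 0.72, edgeR adjusted p = 0.780). Without WT replicate 2 it was 0.10. Akr1c18 lies in a cluster of similar genes on chromosome 13, and read pairs that fitted several places were not counted, so the split between these paralogs is uncertain.

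Hsd11b1 (ENSMUSG00000016194, chromosome 1 from 193221634 to 193264075, minus strand) encodes 11beta-hydroxysteroid dehydrogenase type 1, which regenerates active glucocorticoid inside the cell. It had 760 and 411 CPM in WT and 789 and 676 CPM in Qa2- uteri. Here too WT replicate 2 was the lowest and WT replicate 1 lay between the Qa2- libraries. The log2 fold change was -0.32 (SE 0.36, 95% interval from -1.25 to 0.60, edgeR adjusted p = 0.696), and without WT replicate 2 it was 0.050.

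Srd5a1 (ENSMUSG00000021594, chromosome 13 from 69573449 to 69611442, minus strand) encodes steroid 5alpha-reductase type 1, which reduces progesterone and testosterone and which mice need for normal cervical ripening at term. Its levels were 592 and 386 CPM in WT and 839 and 660 CPM in Qa2- uteri. Both Qa2- libraries were above both WT libraries, although each group spread more widely than the gap between them. The means were 489 ± 146 CPM and 749 ± 126 CPM (SD, n = 2 each), with a log2 fold change of -0.62 (SE 0.31, 95% interval from -1.41 to 0.18). The edgeR p was 0.105 unadjusted and 0.407 adjusted, and the DESeq2 p was 0.0436 unadjusted and 0.281 adjusted. The difference ranged from -0.98 without WT replicate 1 to -0.34 without WT replicate 2.

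**Figure D2:**
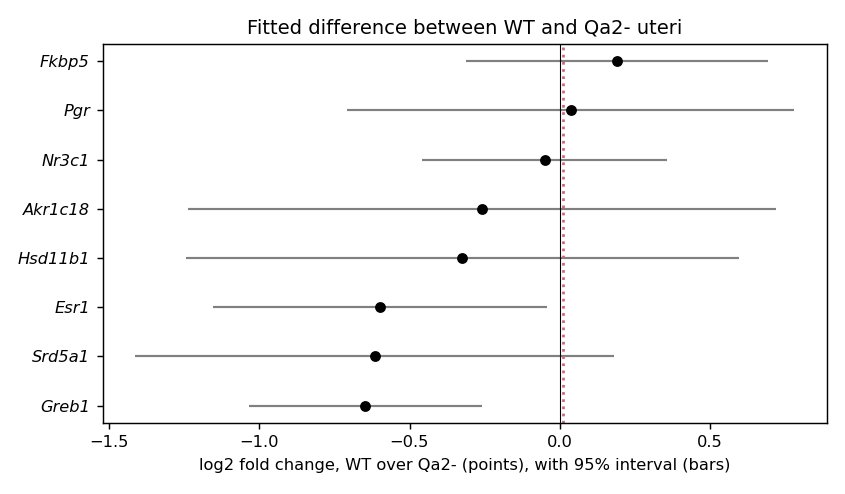
Log2 fold change of WT over Qa2- uteri for the 8 genes with counts (points) with its 95% interval (bars) from edgeR; the dotted line is the median of all 14492 genes, 0.012. The intervals of Greb1 and Esr1 lie below 0, from -1.03 to -0.26 and from -1.15 to -0.042, and those of the other 6 genes span 0.

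Counted over the 8 genes tested, 0 passed an adjusted p under 0.05 with edgeR, as did 0% of all genes tested, and 0 passed with DESeq2, where 4.83% of all genes did. At an unadjusted edgeR p under 0.05 there were 2 of 8, Esr1 and Greb1, beside 15.2% of all genes. Both were higher in Qa2- uteri, a direction that 7.09% of all genes had at this level. The groups did not overlap for 3 of the 8, all with Qa2- above WT, an order found in 24.5% of all genes tested, and for 0 with WT above Qa2-, found in 25.4%. The median log2 fold change of the 8 genes was -0.29, from -0.65 for Greb1 to 0.19 for Fkbp5, and that of all genes tested was 0.012. All 8 exceeded 1 CPM in each of the 4 libraries, so none passed the filter through 1 group alone.

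Levels between genes were compared as CPM per kilobase of exonic length. In WT uteri the order was Akr1c18 (1056), Srd5a1 (168), Hsd11b1 (138), Pgr (26.5), Esr1 (18.2), Fkbp5 (10.6), Nr3c1 (9.74) and Greb1 (6.23), with Esr2 at 0. The ranges of Srd5a1 and Hsd11b1 overlapped in WT, although within each WT library Srd5a1 was the higher, at 203 against 179 and 133 against 96.7. Fkbp5 and Nr3c1 also overlapped and changed places between the WT libraries. In Qa2- uteri Akr1c18 stood at 1262, Srd5a1 at 258 and Hsd11b1 at 172. Esr1 followed at 27.5 and Pgr at 25.9, with overlapping libraries, so that the order of these receptors, with Pgr above Esr1 in both WT libraries, was no longer separate. Nr3c1 at 10.1, Greb1 at 9.76 and Fkbp5 at 9.32 came last, each overlapping its neighbour. The 3 enzymes thus exceeded the receptors in both groups.

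Ratios between genes of the same library do not depend on the scaling of that library, and the following ones were chosen after their values were seen. With 2 libraries per group an exact permutation test cannot give a p below 0.333, so they are given as values without a test. Esr1 over Pgr, both per kilobase, was 0.804 and 0.611 in WT and 0.886 and 1.29 in Qa2- uteri. The Qa2- ratios were both higher, by 0.61 on the log2 scale on average. Esr1 over Nr3c1 was 1.69 and 2.04 in WT and 2.33 and 3.20 in Qa2- uteri, also without overlap. Greb1 over Esr1 was 0.387, 0.307, 0.359 and 0.351 in WT replicates 1 and 2 and Qa2- replicates 1 and 2, so that the ratio of this estrogen-induced gene to its receptor lay between the WT values in both Qa2- libraries.

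The 3 enzymes were lowest in the library with the least epithelial RNA. Akr1c18, Hsd11b1 and Srd5a1 each had their lowest value in WT replicate 2, as did 7 of the 8 epithelial markers, and 6 of the 8 were higher in both Qa2- libraries, an order that 24.5% of all genes tested had. One of the 6, Foxa2, passed the filter only through Qa2-, and without it the count was 5 of 7. Set over the summed CPM of these markers, Akr1c18 was 0.743 and 0.697 in WT and 0.510 and 0.498 in Qa2- uteri. On this scale WT was the higher group, with replicates close together. The marker sum itself was higher in both Qa2- libraries, which by itself lowers the ratios there. Hsd11b1 gave 0.344 and 0.315 in WT against 0.258 and 0.227 in Qa2- uteri, likewise with WT above. Srd5a1 gave 0.268 and 0.296 against 0.274 and 0.221, where the groups overlapped, and Esr1 and Greb1 overlapped as well. The cells that hold these transcripts were not identified here, and the part of the epithelial share in the differences of these 5 genes was not tested. Of 6 markers of ovary and corpus luteum, Lhcgr, the luteinizing hormone receptor, had at most 4 counts per library and Fshr, the follicle-stimulating hormone receptor, had 0. Their sum was 192 CPM in WT replicate 1, where Akr1c18 was highest, and 18.4 to 35.7 CPM in the other libraries. Cyp11a1, which makes pregnenolone from cholesterol, carried this difference with 180 CPM in WT replicate 1 against 2.07 to 8.0 CPM elsewhere. Other genes of this list did not share that order: Inha, an inhibin subunit, and Hsd3b1 were lowest in WT replicate 1, and Star, the cholesterol transporter, was higher in WT replicate 2 and Qa2- replicate 1 than in WT replicate 1. Prl8a2, a prolactin-family gene of the decidua, was likewise high in that library, with 4387 counts against 77 to 464 in the others. These marker genes were singled out after their values were seen, and the part of decidual or luteal tissue in the Akr1c18 levels was not tested.

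**Figure D3:**
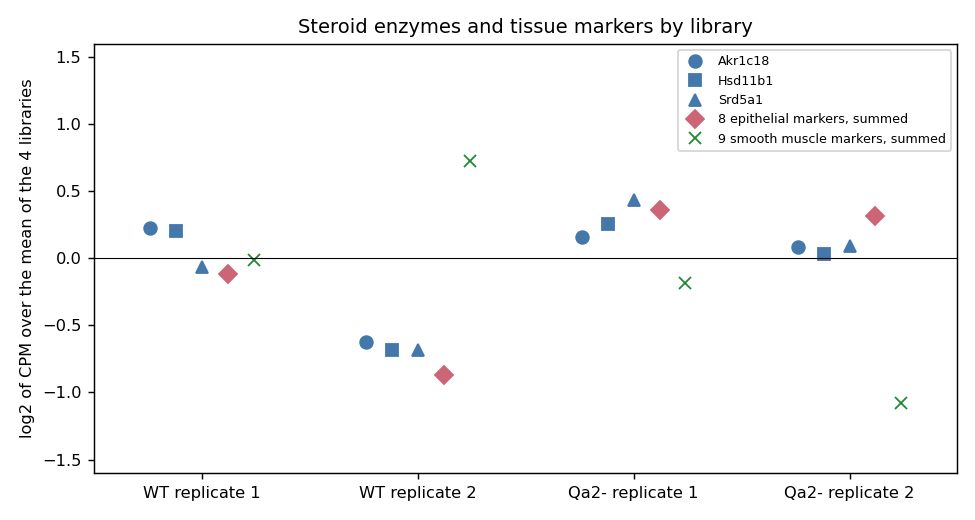
Akr1c18, Hsd11b1 and Srd5a1 with the summed markers of uterine epithelium and smooth muscle in each library, as log2 of the CPM over its mean in the 4 libraries. In WT replicate 2 the 3 enzymes and the epithelial markers are all lowest while smooth muscle is highest; symbols are set side by side for legibility.

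The wider steroid pathway was described by 7 lists with 110 genes, of which 97 passed the filter. None was called by edgeR, and 24 had an unadjusted p under 0.05, beside 15.2% of all genes tested. Of the 24, 14 were higher in WT and 10 in Qa2- uteri. By direction, 1172 of all 14492 genes tested were higher in WT at this level and 1027 in Qa2- uteri. DESeq2 called 9 of the 97, beside 4.83% of all genes. The counts of each list are to be read against the same shares, and no list was tested against the other genes. Without Cyp17a1, Cyp21a1, Hsd3b1 and Il1b, which passed the filter through 1 group alone, 21 of 93 had an unadjusted p under 0.05, and Cyp21a1 and Hsd3b1 were among the 9 of DESeq2. The median log2 fold change of all 97 genes was 0.013, against 0.012 for all genes. Genes named from a list are the 3 with the smallest p and the most abundant one, and any other is said to be chosen after its value was seen.

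Of 10 further steroid receptors tested, 0 had an unadjusted p under 0.05, and the median log2 fold change was 0.020. Paqr5, a membrane progestin receptor, had 48.0 and 23.2 CPM in WT and 65.5 and 66.6 CPM in Qa2- uteri (log2 fold change -0.89, SE 0.35, edgeR adjusted p = 0.334). Nr3c2, the mineralocorticoid receptor, had 7.97 and 6.12 CPM in WT against 4.68 and 3.83 CPM in Qa2- uteri. The membrane-associated progesterone-binding proteins Pgrmc1 and Pgrmc2 had log2 fold changes of 0.18 and 0.34, of which only the latter did not overlap between groups.

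Among 15 receptor chaperones and coregulators, 3 had an unadjusted p under 0.05, a share near the 15.2% of all genes, and the median was -0.091. Nrip1, a corepressor of the estrogen receptor that estrogen also induces, had 37.4 and 34.9 CPM in WT and 55.9 and 80.2 CPM in Qa2- uteri. Both Qa2- libraries were higher, with a log2 fold change of -0.91 (SE 0.22, edgeR adjusted p = 0.255) and an adjusted p of 0.0289 with DESeq2. The coactivator Ncoa2 had a log2 fold change of -0.38 and the chaperone adaptor Stip1 one of 0.42. Hsp90ab1, the constitutive chaperone that holds the receptors ready for hormone, had 1387 and 1380 CPM in WT against 1337 and 1487 CPM in Qa2- uteri. Fkbp4, the co-chaperone that the progesterone receptor needs in the uterus and that opposes Fkbp5, was chosen after its values were seen and had 165 and 133 CPM against 170 and 246 CPM, a log2 fold change of -0.48 (edgeR adjusted p = 0.426).

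Of 12 progesterone targets tested, 3 had an unadjusted p under 0.05 with WT higher and 1 with Qa2- higher, at a median of 0.23. Over all 14492 genes tested, these counts were 1172 and 1027. Fst, which encodes the activin inhibitor follistatin, had 180 and 319 CPM in WT and 140 and 107 CPM in Qa2- uteri (log2 fold change 1.01, SE 0.33, edgeR adjusted p = 0.294). Hoxa10, a homeobox gene of the uterine stroma, had 182 and 179 CPM against 134 and 111 CPM, and Hand2, a stromal transcription factor chosen after its values were seen, had 56.5 and 71.8 CPM against 48.9 and 34.0 CPM. Calca, which encodes calcitonin, ran the other way at 1.72 and 2.01 CPM against 2.90 and 4.8 CPM. Hoxa10 and Hand2 were also among the 8 stromal and decidual markers, of which 4 had WT above and 1, Pdgfra, had Qa2- above, beside 25.4% and 24.5% of all genes tested. The sums of these markers, mostly Dcn, were 5304 and 4668 CPM in WT and 3497 and 2436 CPM in Qa2- uteri, so they are no measure of a stromal share as such, and the part of stromal cells in these differences was not tested. Errfi1 had a log2 fold change of 0.33.

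The 11 estrogen targets had the lowest median of the lists, -0.63, and 2 of them, in opposite directions, an unadjusted p under 0.05, near the 15.2% of all genes. Sprr2f, a small proline-rich protein of the epithelium, had 51.1 and 69.4 CPM in WT and 117 and 144 CPM in Qa2- uteri. Its log2 fold change was -1.12 (SE 0.22), with an adjusted p of 0.246 with edgeR and 0.00299 with DESeq2. Cdkn1a, a cell cycle inhibitor, was at 142 and 87.0 CPM in WT against 67.7 and 46.8 CPM in Qa2- uteri. Lcn2, the secreted protein lipocalin 2, owed its log2 fold change of -2.55 to a single library, with 541 and 331 CPM in WT and 462 CPM in Qa2- replicate 1 against 4641 CPM in Qa2- replicate 2. Prap1, the most abundant, had a log2 fold change of -0.25. C3, complement component 3, was chosen after its values were seen and had 10515 and 5007 CPM in WT against 16716 and 30494 CPM in Qa2- uteri (adjusted p = 0.383 with edgeR and 0.0102 with DESeq2). Several of these genes are epithelial, and the epithelial markers other than Foxa2 had a median log2 fold change of -0.80, a part that was not tested.

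Among 15 glucocorticoid response genes, 4 had an unadjusted p under 0.05 with WT higher and 1 with Qa2- higher, at a median of 0.30. The counts over all 14492 genes tested were 1172 and 1027. Per1, a clock gene with a glucocorticoid response element, had 41.5 and 43.1 CPM in WT and 76.1 and 69.1 CPM in Qa2- uteri, a log2 fold change of -0.78 (SE 0.14, adjusted p = 0.246 with edgeR and 0.0133 with DESeq2). Tsc22d3, which encodes the glucocorticoid-induced leucine zipper, had 249 and 198 CPM in WT and 150 and 117 CPM in Qa2- uteri. Pdk4, a kinase that restrains the use of glucose in mitochondria, had 182 and 56.3 CPM against 23.6 and 20.8 CPM, a log2 fold change of 2.42 (SE 0.57, adjusted p = 0.255 with edgeR and 0.000261 with DESeq2). Adipocyte markers, 6 in all with 1 at or under the floor throughout, summed to 65.3 and 44.6 CPM in WT and 31.3 and 19.3 CPM in Qa2- uteri, and 2 of the 6, Adipoq and Fabp4, were higher in both WT libraries, a share near the 25.4% of all genes. The 3 mesothelial markers summed to 59.7 and 50.2 CPM in WT against 20.8 and 11.3 CPM in Qa2- uteri, each with WT above, an order that 25.4% of all genes had, and 1 of them, Lrrn4, passed the filter only through WT. The part of adipose tissue and of the outer lining in the differences of Pdk4 and the other genes of this list was not tested. Sgk1 and Klf9, chosen after their values were seen, had log2 fold changes of 0.75 and 0.55, and Mt2 one of 0.62. The order of Tsc22d3, Sgk1 and Klf9, higher in both WT libraries, was not that of Per1 or of the receptor Nr3c1.

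Of 19 steroid enzymes tested, 1 had an unadjusted p under 0.05 with WT higher and 3 with Qa2- higher, at a median of -0.46. Over all 14492 genes tested, these counts were 1172 and 1027. Of the 3 enzymes higher in Qa2- uteri, Cyp21a1 and Hsd3b1 entered the test only through the Qa2- libraries. Without genes of that kind, 1 of 16 had a p under 0.05 in each direction. Akr1c14, the 3alpha-hydroxysteroid dehydrogenase that acts on the products of 5alpha-reductase, had 329 and 681 CPM in WT and 139 and 100 CPM in Qa2- uteri. It stood in the opposite order to its neighbour Srd5a1 in the pathway, with a log2 fold change of 2.08 (SE 0.42), an adjusted p of 0.246 with edgeR and one of 4.11e-05 with DESeq2. Akr1c18 over Akr1c14, per kilobase, was 13.4 and 3.58 in WT and 30.2 and 39.6 in Qa2- uteri, a ratio of paralogs chosen after its values were seen. Hsd11b2, which inactivates glucocorticoid and so works against Hsd11b1, had 455 and 804 CPM in WT and 949 and 1009 CPM in Qa2- uteri (log2 fold change -0.64, SE 0.35, edgeR adjusted p = 0.437). Hsd11b2 over Hsd11b1 was 1.39 and 4.52 in WT against 2.78 and 3.45 in Qa2- uteri, with overlap.

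Cyp21a1 and Hsd3b1, enzymes of adrenal and ovarian or placental hormone synthesis, had few counts and passed the filter only through the Qa2- libraries. Cyp21a1 had 4 and 7 counts in WT and 39 and 57 in Qa2- uteri, and lies 0.635 Mb from H2-Q7. Hsd3b1 had 6 and 10 counts against 231 and 42. Genes of the yolk sac, a sign of fetal tissue in a uterine sample, summed to 482 CPM in Qa2- replicate 1, where Hsd3b1 was highest, and to 5.66 to 43.3 CPM in the other libraries. The 8 trophoblast markers summed to 29.9 CPM in WT replicate 2 and to at most 3.30 CPM elsewhere, with 4 of them at or under the floor in all libraries, and the part of fetal or placental tissue was not tested. Hsd17b2, which oxidizes estradiol to estrone and was chosen after its values were seen, had 1.07 and 1.51 CPM in WT and 2.20 and 3.57 CPM in Qa2- uteri. Cyp19a1, the aromatase that makes estrogen, and Srd5a2, both also chosen after their values were seen, had 0 counts in all 4 libraries.

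Of 15 genes tied to labour, 4 had an unadjusted p under 0.05 with WT higher and 2 with Qa2- higher, at a median of 0.22. Over all 14492 genes tested, these counts were 1172 and 1027. One of the 4 labour genes with WT higher, Il1b, entered the test only through WT, and without it 3 of 14 remained. Of the contraction-associated genes, Oxtr, Ptgs2 and Gja1 were higher in both WT libraries, while Ptgfr, the prostaglandin F receptor, chosen after its values were seen, overlapped. Ptgs2, the inducible prostaglandin synthase, had 3.71 and 3.34 CPM in WT and 1.92 and 1.17 CPM in Qa2- uteri, and Gja1, the gap junction protein connexin 43, chosen after its values were seen, had 166 and 246 CPM against 143 and 99.8 CPM. The transcription factors Stat5b and Fosl2, chosen after their values were seen, were those with Qa2- higher, with log2 fold changes of -0.39 and -0.50. The oxytocin receptor Oxtr had a log2 fold change of 1.76 (SE 0.35, adjusted p = 0.246 with edgeR and 0.000338 with DESeq2). Il1b had 89 and 55 counts in WT against 20 and 21 in Qa2- uteri and passed the filter only through WT. Zeb1 and Zeb2, repressors of the contraction genes that progesterone sustains, overlapped between groups with log2 fold changes of 0.18 and 0.22 and were chosen after their values were seen, and Jund had one of 0.036. Of the 9 smooth muscle markers, 6 had higher values in both WT libraries, an order found in 25.4% of all genes, and 0 had an unadjusted edgeR p under 0.05. DESeq2 called 2 of the 9, Tagln and Des, beside 4.83% of all genes. The median log2 fold change of these markers was 0.91, and their part in the values of the labour genes was not tested.

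**Figure D4:**
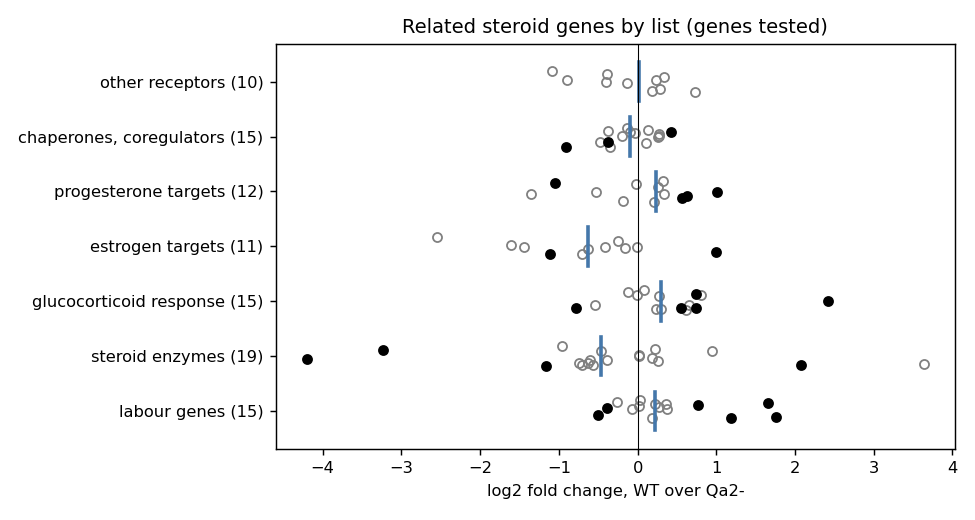
Log2 fold change of WT over Qa2- uteri for the 97 genes tested in 7 lists (circles; filled where the unadjusted edgeR p was under 0.05; blue lines, list medians; number tested in parentheses; vertical scatter is for legibility). Medians run from -0.63 for estrogen targets to 0.30 for glucocorticoid response genes, and no gene passed the adjusted threshold.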

How the data were processed

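The authors deposited raw counts of read pairs per gene, not normalized, 1 file per library. Per the submitters' processing notes, reads were aligned with STAR 2.7.3a to GRCm38.p6 and counted with featureCounts 2.0.0 of Subread. Per the file headers, counting was on the reverse strand, for pairs with both ends mapped at a quality of 3 or more, and multi-mapping pairs and those on several genes were not counted, which lowers genes with close paralogs. Symbols came from GENCODE M21 on the same build for 55240 identifiers, and 181 had none.

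Groups follow the sample titles. The expression filter follows the wording of the study's methods (1 CPM or more in 2 or more samples), which name no test, and left 14492 genes. It may not be the filter that the study ran: filterByExpr of edgeR kept 17210 genes. Counts were TMM-normalized (factors 0.957 to 1.05) and fitted with edgeR 4.0.16 (glmQLFit, glmQLFTest) in R 4.3.3, with adjustment over all genes kept. A standard error is the size of the log2 fold change over the square root of F. The fit was tested on simulated counts. DESeq2 1.42.0, 2 other scalings, other filters, a replicate block, edgeR's newer fit (legacy FALSE) and each library left out were alternatives. The fit of filterByExpr and the crossed block were added after seeing the data.

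The 9 genes and all lists were chosen with earlier results of these data known. Named genes are the 9, and from each of the 7 lists the 3 with the smallest unadjusted p and the 1 with the highest CPM per kilobase, with others marked in the text. Sts could not be matched by symbol and was not analysed here. Floors of 3 counts cover counting error only. Same-numbered samples did not deviate together (correlation -0.40), so the main fit has no block.

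One gene of the receptor list is not reported here.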

Additional observations from a re-analysis of the deposited data

How the results depend on the processing

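No alternative called any of the 9 genes. With 14492 genes tested and none called, DESeq2 called 700 (404 higher in WT and 296 higher in Qa2- uteri), omission of the filter 61 and the replicate block 2, and leaving out each library in turn called 0 to 45, the 45 without WT replicate 2. Of the related genes, DESeq2 called 9, and leaving out each library 0 to 2, the 2 without WT replicate 2. The 2 of 8 genes at an unadjusted p under 0.05 became 1 with the replicate block, which kept Greb1, and 1 to 2 with each library left out, with 1 without WT replicate 2, Qa2- replicate 1 or Qa2- replicate 2. The cause of these changes was not tested.

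Esr1, Greb1 and Srd5a1 kept their sign under all 13 alternatives, and with a library left out their log2 fold changes ranged from -0.75 to -0.49, from -0.74 to -0.56 and from -0.98 to -0.34. Library totals alone turned Pgr to -0.058 and Jund to -0.059, and moved the median of all genes to -0.083. With a library left out, signs also turned for Pgr (-0.34 without WT replicate 2 to 0.31, and -0.13 without Qa2- replicate 2), Nr3c1 (-0.17 to 0.077 without Qa2- replicate 1), Fkbp5 (-0.044 without WT replicate 1 to 0.37), Akr1c18 (-0.77 to 0.10 without WT replicate 2), Hsd11b1 (-0.86 to 0.050 without WT replicate 2), Pgrmc1 (-0.084 without WT replicate 1 to 0.38), Hsp90ab1 (-0.11 to 0.044 without Qa2- replicate 2), Prap1 (-0.63 to 0.038 without WT replicate 2) and Jund (-0.036 without Qa2- replicate 1 and -0.030 without WT replicate 1, to 0.10). The groups of all these genes overlapped. Of 460 gene values under the alternatives, 438 kept sign and side of the threshold, 9 newly passed it and 13 turned.

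Same-numbered samples correlated at -0.40, which in groups of 2 means that differently numbered samples deviated together to the same degree. The crossed pairing, added after seeing the data, called 0 genes, with a smallest adjusted edgeR p of 0.0539. It raised the genes at an unadjusted edgeR p under 0.05 from 2199 to 3625, and the cause was not tested. A library left out leaves 1 mouse in a group, assumed to vary like the others. With 2 mice per group the 95% intervals differed in width between genes, from -1.03 to -0.26 for Greb1 and from -1.24 to 0.72 for Akr1c18.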
